A study of Mus musculus with 2 samples.

Results

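The Rab GTPases and SNARE fusion proteins of mouse uterine stromal cells were compared between a floxed control array and a knockout-labelled array. Members were the probe sets whose single annotated symbol names a numbered Rab gene (Rab), a vesicle-associated membrane protein (Vamp), a syntaxin (Stx), 1 of the 4 genes Snap23, Snap25, Snap29 and Snap47, or a synaptotagmin-like protein (Sytl). They came to 163 probe sets for 82 of the 12393 genes with 1 symbol. Of these, 50 are Rab GTPases, 23 are SNAREs and 3 are synaptotagmin-like genes. The other 6 carry a Rab name without being GTPases, namely Rab3gap2, Rab3ip and Rab3il1 with names taken from Rab3, the Rab11 adaptor Rab11fip5, and Rab5if and Rab26os.

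Rab proteins are small GTPases that switch between a GTP-bound, membrane-bound form and a GDP-bound form held in the cytosol, and each marks a kind of membrane on which it recruits motors and tethers. Exchange factors switch them on, GTPase-activating proteins switch them off, and the GDP dissociation inhibitors carry them between membranes. SNARE proteins then pull a vesicle and its target together. A VAMP on 1 membrane zips with a syntaxin and a SNAP-type partner on the other, and the ATPase Nsf takes the bundle apart afterwards. Uterine stromal cells become secretory as they decidualize around the embryo, so both families serve a process that these cells take up.

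The stromal cells were released by enzymatic digestion of uterine horns on day 5 of pregnancy, with the day of the vaginal plug counted as day 1. Cells of 3 mice per genotype were pooled, and the RNA of each pool was hybridised to 1 Affymetrix Mouse Genome 430A 2.0 array. Controls carried floxed alleles, and the other mice carried in addition a Cre recombinase driven by the progesterone receptor gene (PRcre), which acts in cells that express that receptor and in no stromal cell type alone. The labels name different target genes, Hif1 in the titles, Hif2 alpha in the genotype field and Rac1 in the breeding note, so the second array is called knockout-labelled. The mice's age and strain are not given in the sources used here. Values are MAS5 signals, a linear brightness per probe set, and a signal at or under a floor of 19.7, the 40th percentile of both arrays, was set to that floor. Log2 ratios are taken as knockout-labelled minus control, from the brightest probe set of a gene. With 1 array of a pool per genotype there was no replicate, no test and no error between animals, so every value describes these arrays, and the number of arrays limits the precision. What error could be measured came from genes with several probe sets, which over 2660 genes gave an SD of 0.64 for 1 log2 ratio. Fewer cells of a type and less RNA per cell cannot be told apart in such samples.

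The arrays also differed in ways that run through the whole series. For b-actin, the 3′ probe set over the 5′ probe set came to 2.27 in the control and was 7.08 times that in the knockout-labelled pool, and for Gapdh the same quotient was 4.86 times as high there as in the control. Each of the named target genes kept a signal above the floor in the knockout-labelled pool, with log2 ratios of 0.39 for Epas1, which encodes Hif2 alpha, 1.10 for Hif1a and -0.46 for Rac1, whose other bright probe set had 664 and 332, just past 2-fold lower. All 13 stromal markers had a signal above the floor on at least 1 array, although Hand2 and the estrogen receptor Esr1 were close to it, and their summed signal was 32239 in the control against 44195 in the other pool. Among them Hoxa11 alone was past 2-fold, with a log2 ratio of -1.85. Markers of other cells moved at the same time, where 13% of all 8593 genes compared were lower and 6.21% higher by 2-fold or more. Lower by 2-fold or more were 5 of 10 endothelial markers (summed signals 3380.2 and 2056), 4 of 9 smooth muscle and pericyte markers (11569 and 11739), 3 of 11 epithelial markers (2565 and 2040.3), 6 of 11 myeloid markers (4722 and 4357), and 5 of 11 lymphocyte, NK and mast cell markers (1644 and 1343). Ehf of the epithelial list, Ptprc and C1qb of the myeloid list and Klrd1 of the NK list were higher by that much, and only Krt19 and Cd3e of all these lists never exceeded the floor. The part of these differences in the results that follow was not tested.

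The promoters of 5 members are shown because the contrasts among the members rest on these genes. They are Rab5a and Rab5c, relatives with ratios of opposite sign, Rab24, the lowest Rab, and Vamp5 and Vamp8, adjacent genes that were both lower. Each window runs from 250 bases before to 50 bases after the RefSeq start on the build GRCm38.p6, with capitals marking ACGTG or GCGTG on either strand, the core letters bound by hypoxia-inducible factors.
Rab5a, chr17:53478984-53479283, strand +: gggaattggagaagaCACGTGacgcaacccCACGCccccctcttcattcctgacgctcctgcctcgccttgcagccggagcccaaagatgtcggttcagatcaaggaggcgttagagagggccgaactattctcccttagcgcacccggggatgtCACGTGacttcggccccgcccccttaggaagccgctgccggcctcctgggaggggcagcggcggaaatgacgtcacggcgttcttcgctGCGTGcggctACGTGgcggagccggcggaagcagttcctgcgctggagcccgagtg
Rab5c, chr11:100738166-100738465, strand -: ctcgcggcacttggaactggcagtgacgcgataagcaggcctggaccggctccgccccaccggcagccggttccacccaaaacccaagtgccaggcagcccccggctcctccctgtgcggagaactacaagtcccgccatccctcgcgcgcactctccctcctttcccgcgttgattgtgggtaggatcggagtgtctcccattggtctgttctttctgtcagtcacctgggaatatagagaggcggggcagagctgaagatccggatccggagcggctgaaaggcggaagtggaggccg
Rab24, chr13:55321931-55322230, strand -: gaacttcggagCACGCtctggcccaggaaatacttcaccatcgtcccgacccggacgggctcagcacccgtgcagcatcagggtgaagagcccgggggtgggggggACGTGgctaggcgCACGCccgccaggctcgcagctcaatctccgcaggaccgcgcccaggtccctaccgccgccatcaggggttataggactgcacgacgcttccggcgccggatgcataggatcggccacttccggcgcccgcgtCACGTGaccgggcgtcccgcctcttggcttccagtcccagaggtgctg
Vamp5, chr6:72380419-72380718, strand -: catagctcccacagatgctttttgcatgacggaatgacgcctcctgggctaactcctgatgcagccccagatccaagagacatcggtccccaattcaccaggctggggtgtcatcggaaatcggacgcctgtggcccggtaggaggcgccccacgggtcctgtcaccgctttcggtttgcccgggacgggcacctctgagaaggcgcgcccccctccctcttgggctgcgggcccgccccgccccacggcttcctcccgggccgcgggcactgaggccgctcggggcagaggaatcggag
Vamp8, chr6:72390618-72390917, strand -: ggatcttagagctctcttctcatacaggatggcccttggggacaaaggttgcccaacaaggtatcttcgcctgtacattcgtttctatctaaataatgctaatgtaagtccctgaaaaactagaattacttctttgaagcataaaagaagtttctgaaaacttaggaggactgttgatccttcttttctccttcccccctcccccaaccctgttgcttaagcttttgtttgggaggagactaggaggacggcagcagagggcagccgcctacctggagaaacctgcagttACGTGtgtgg

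The letters occurred in the windows of Rab5a, Rab24 and Vamp8 and in neither of those of Rab5c and Vamp5. The palindrome CACGTG holds ACGTG on both strands, so overlapping matches were counted on each strand, which gave 5 matches to ACGTG and 2 to GCGTG for Rab5a, 3 and 2 for Rab24, and 1 and 0 for Vamp8. Of the 82 members 69 had a window, and ACGTG or GCGTG stood in 50 of their 89 windows (56.2%), against 14380 of all 32851 windows (43.8%). Members' windows were also richer in CG dinucleotides, with a median of 19 against 7, so the shares are not matched for base composition. A match is a run of letters and not a measured binding site.

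**Figure D1:**
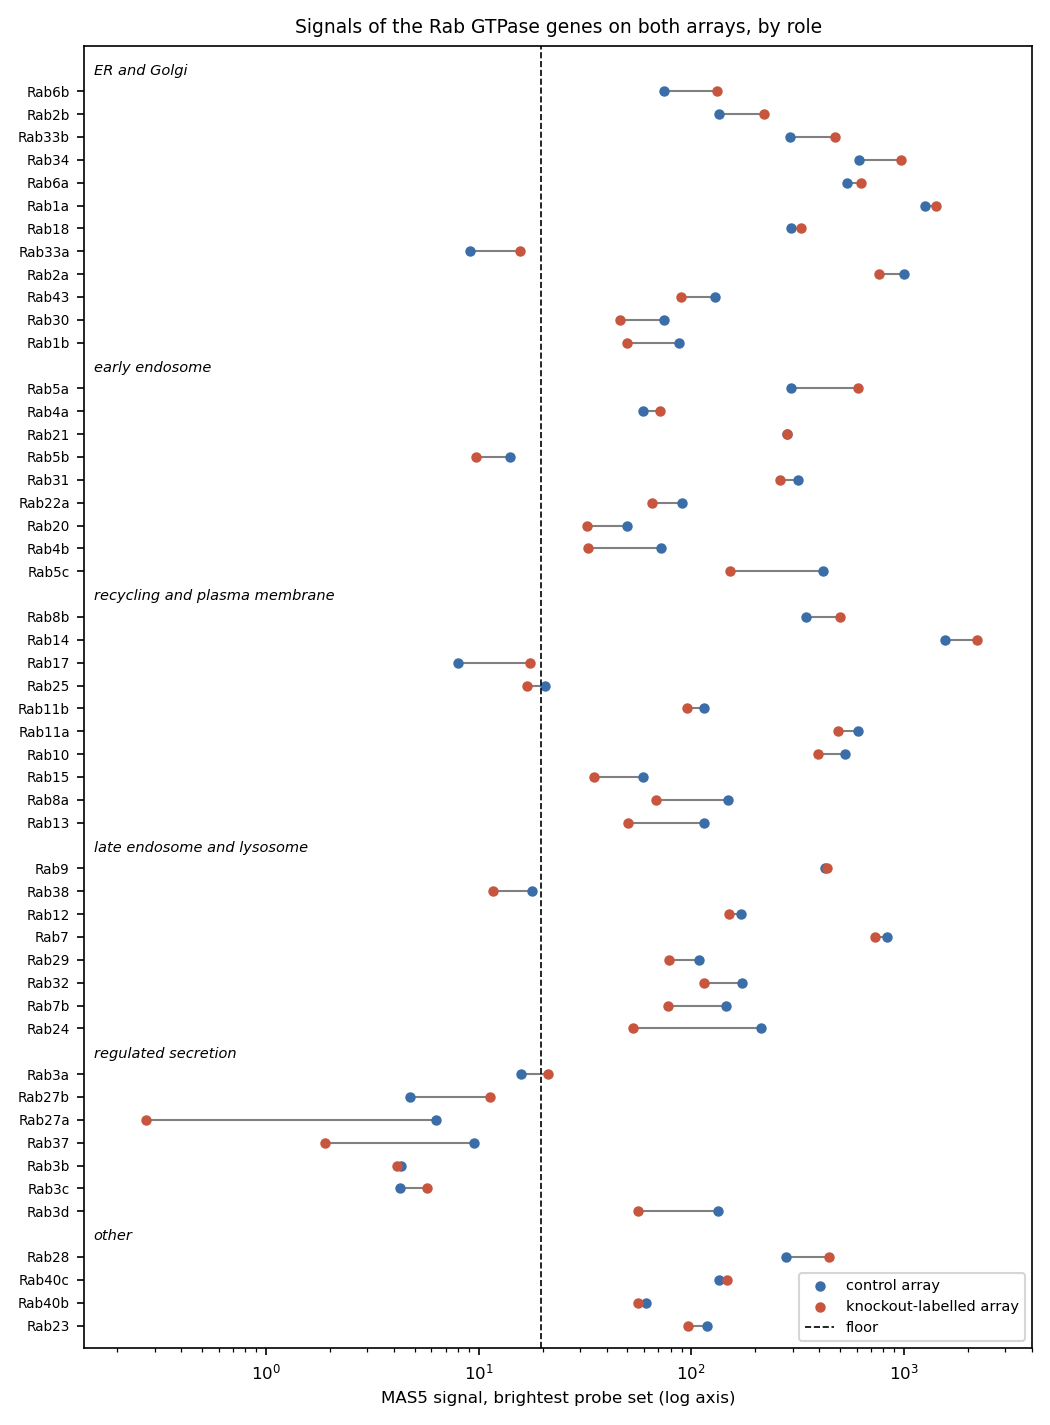
MAS5 signal (log axis) of each of the 50 Rab GTPase genes at its brightest probe set, with the control array in blue, the knockout-labelled array in red, and the floor of 19.7 as a dashed line; for genes with all probe sets at the floor, the first by identifier is drawn. Rab27a and Rab27b lie left of the floor, and among genes above the floor Rab5a alone lies over 2-fold to the right of its control value, while Rab24 and Rab5c lie furthest to the left of theirs.

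The Rab GTPases were spread much as all genes were. On neither array did 9 of the 50 exceed the floor, and of the 41 compared 1 was higher and 6 were lower by 2-fold or more. Of all 8593 genes compared, 6.21% were higher and 13% lower by that much, so the Rab shares of 2.44% and 14.6% lay near the background. The median log2 ratio was -0.27 over the Rab genes and -0.10 over all genes, and 16 Rab genes were above 0, which is 39.0%, against 44.7% of all genes. With each array centred on its median, 20 of 40 Rab genes were above 0. The counts past 2-fold moved with the scaling, for the Rab genes and for all genes alike. After quantile normalization 3 of 40 Rab genes were at least 2-fold lower, where 9.54% of all genes were. After removal of the trend with signal 3 of 41 were, against 9.5% of all genes. With each array centred on its median 2 of 40 were, against 7.79% of all genes. Under each of these scalings 2 Rab genes were at least 2-fold higher. Of all genes 8.25%, 7.84% and 13.3% were higher by that much, in the same order. Lower Rab genes were mostly dim. With all genes split into 5 equal groups by signal, the 3 dimmest groups held 23 Rab genes, which had a median of -0.53, and 5 were at least 2-fold lower (21.7%). All genes there had a median of -0.25, and 15.7% were at least 2-fold lower. In the 2 brightest groups, 18 Rab genes had a median of 0.16, and all genes there had 0.15.

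The early endosome Rabs held the widest contrast. Rab5a, which directs fusion of endocytic vesicles with early endosomes, had a control signal of 295 and a knockout-labelled signal of 609.5. Its log2 ratio was 1.05, the highest of the 41 Rab genes compared. Rab5c, its close relative on the same membrane, had signals of 414 and 152 and a log2 ratio of -1.45. Rab5a was high and Rab5c low on the knockout-labelled array, and their relative Rab5b was at the floor on both. Each of these 3 genes had 1 probe set. The ratios of Rab5a and Rab5c lay 2.49 apart, where probe sets of the same gene differed with an SD of 0.91, and both stayed past 2-fold under all 3 other scalings, up to 1.33 for Rab5a and -1.39 to -1.17 for Rab5c.

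Rab4b, a Rab of fast recycling from early endosomes, was also lower, with signals of 72.4 and 32.8 and a log2 ratio of -1.14. Its relative Rab4a had 59.4 and 71.0 (log2 ratio 0.26) at 1 probe set, and a dimmer one of 28.6 on the control array that was at the floor on the other. The remaining early endosome Rabs, at their brightest probe sets, lay between -0.62 and 0.01. They were Rab20, Rab22a, Rab31 and Rab21, of which Rab31, a Rab of traffic between trans-Golgi and endosomes, had signals of 319 and 260.4. The ratio of Rab4b was -0.83 to -0.88 under the 3 other scalings, and -0.13 with the floor at the 60th percentile, so its call rests on both the deposited scaling and the floor.

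Of the 9 Rabs of recycling and the plasma membrane compared, 2 were above 0 (22.2%, against 44.7% of all genes). Of the 7 below 0, Rab11b (-0.27) turned above 0 with each array centred on its median and Rab25 is a bound. Rab13, a Rab of tight junctions and cell-surface delivery, had signals of 115 and 50.4 and a log2 ratio of -1.19. Rab8a, which carries membrane to the cell surface and the cilium, had signals of 148 and 68.3 and a log2 ratio of -1.12. Its relative Rab8b had 345 and 498.9, a log2 ratio of 0.53, so Rab8a was low and Rab8b high on the knockout-labelled array. Rab13 and Rab8a each had 1 probe set, and under the 3 other scalings their ratios were -0.95 to -0.91 and -0.92 to -0.84. Rab11a, the main Rab of recycling endosomes, had 607 and 489 at the brightest probe set (log2 ratio -0.31) and 185 and 325 at another (0.81). Rab14, a Rab between trans-Golgi and endosomes, was given opposite directions by its probe sets. Its brightest had signals of 1563 and 2214 (0.50), 3 others had log2 ratios of -0.79, -0.46 and -0.26, and 1 with the control array at the floor was at least 3.23-fold higher. Rab15 (-0.76) and Rab10 (-0.43), which acts in delivery to the cell surface, were below 0 without reaching 2-fold. The dimmer probe sets of Rab10 had 0.02 and 0.14, on the other side of 0. Rab25, an epithelial Rab11 relative, had 20.5 on the control array and was at the floor on the other, and Rab17, also epithelial, was at the floor on both.

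Of the 7 late endosome and lysosome Rabs compared, 1 was above 0 (14.3%, against 44.7% of all genes). Their median log2 ratio was -0.47, against -0.10 over all genes, although Rab7 and Rab12 turned above 0 with each array centred on its median. Rab24, a Rab linked to autophagosomes and degradation, gave 213 (control) and 53.0 (knockout-labelled) at the brighter of its probe sets, and 126 and 37.1 at the dimmer. The dimmer ends in _s_at, a suffix of probe sets that can match several transcripts. Both probe sets were low on the knockout-labelled array, with log2 ratios of -2.01 and -1.77, the former the lowest of the Rab genes, and under the 3 other scalings it was -1.81 to -1.73. Rab7b, a Rab between late endosomes and the trans-Golgi, was lower at both probe sets without reaching 2-fold (146 and 77.4, log2 ratio -0.92, and 74.7 and 39.0, log2 ratio -0.94). Rab7, the central late endosome Rab, had signals of 830.5 and 728 (-0.19) and 145 and 71.2 at a dimmer probe set (-1.03). Rab9, which serves traffic from late endosomes back to the Golgi, had signals of 426 and 436, a log2 ratio near 0 that turned below it after removal of the trend with signal. Rab32 (-0.58), Rab29 (-0.47) and Rab12 (-0.19) made up the rest, and Rab38 was at the floor on both arrays.

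The 12 Rabs of the ER and Golgi held no gene past 2-fold in the deposited scaling, and 7 of the 11 compared were above 0 (63.6%, against 44.7% of all genes). Rab1a, which acts between ER and Golgi, had signals of 1261 and 1411 (log2 ratio 0.16, turning to -0.09 after removal of the trend with signal), and its relative Rab1b had 87.1 and 49.9 (-0.80). Rab2a, a Rab of the pre-Golgi compartment, had 998.8 and 761 at the brightest probe set (-0.39), while 5 others above the floor gave -0.14 to 0.77. Rab6a, a Rab of retrograde Golgi traffic, had 537 and 625 (0.22). Rab18, a Rab of the ER and lipid droplets, had 294 and 327 (0.16) and -0.74 at a dim probe set. The highest of the group were Rab6b (0.84), Rab2b (0.70), Rab33b (0.69) and Rab34 (0.66), of which Rab34 gave -0.33 and Rab2b gave -0.39, -0.38 and 0.29 at their further probe sets. Rab6b, with signals of 74.2 and 133 at 1 probe set, was past 2-fold under all 3 other scalings, at 1.04 to 1.12. The lowest besides Rab1b were Rab30 (-0.69) and Rab43 (-0.53). Rab33a was at the floor on both arrays.

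Most Rabs of regulated secretion were not measurable on either array. Rab27a, which tethers secretory granules and multivesicular endosomes at the plasma membrane, had 3 probe sets, with control signals of 6.27, 4.48 and 2.90 and knockout-labelled signals of 0.274, 0.871 and 3.71. Rab27b, its relative with a role in the release of extracellular vesicles, had 2 probe sets, with control signals of 4.75 and 0.487 and knockout-labelled signals of 11.3 and 0.476. All 5 lay below the floor of 19.7 on both arrays, so neither gene has a ratio, and a signal under the floor sets no more than an upper limit on what the probes saw. Rab3b, Rab3c and Rab37 likewise stayed under it on both. Rab3a, a Rab of synaptic vesicles, had 21.2 on the knockout-labelled array and was at the floor on the control array. Rab3d, a Rab of secretory granules, was the 1 member of the group with a clear signal, at 133 and 56.2 (log2 ratio -1.24). A dimmer probe set of Rab3d was at least 3.70-fold lower, and 1 more had 42.7 and 41.5 (-0.04). The latter ends in plain _at, and both lower ones end in _a_at. Centring each array on its median took Rab3d to -0.96, and the median over its probe sets was -0.64.

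Among the remaining Rab GTPases none reached 2-fold at the brightest probe set. Rab28, a Rab of the cilium, had signals of 278 and 443 (log2 ratio 0.67), but its other probe set, at the floor in the knockout-labelled pool, was at least 2.10-fold lower. Rab40c (0.11) and Rab40b (-0.12), subunits of ubiquitin ligases, and Rab23 (-0.31), a Rab that dampens Hedgehog signalling, differed less.

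**Figure D2:**
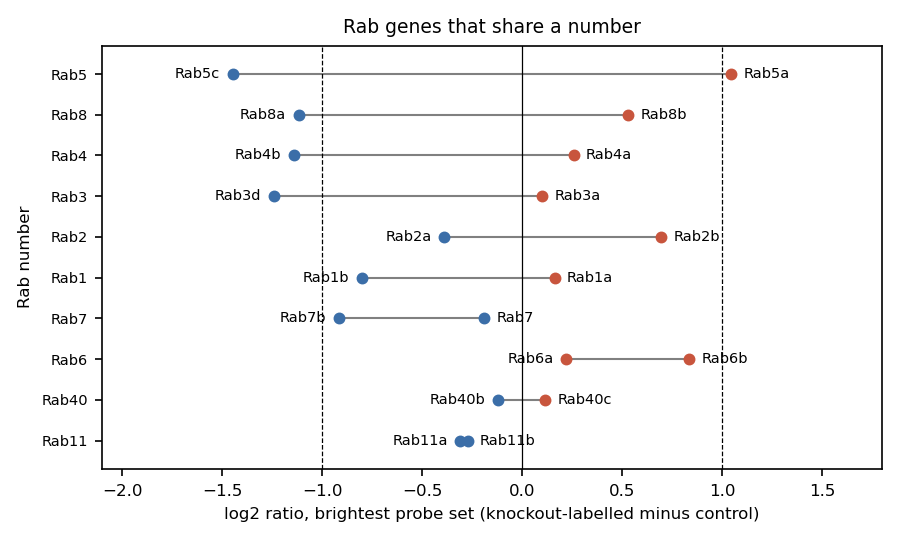
Log2 ratios (knockout-labelled minus control, brightest probe set) of the 10 pairs of Rab genes that share a number and were both compared, ordered by their distance, with points above 0 in red, points below 0 in blue and dashed lines at 2-fold. In 7 pairs the members lie on either side of 0, and the Rab5 pair is the widest at 2.49.

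Rab genes that share a number, that is, close relatives of the same subfamily, were set side by side after their values had been seen. In 7 of 10 such pairs the ratios had opposite signs, and in 6 they lay further apart than the SD of 0.91 between probe sets of 1 gene. Only the Rab5 pair lay more than 2 such SDs apart. Probe sets of the same gene gave ratios on either side of 0 in 55% of 2660 genes over the whole series. That share counts genes with 2 or more probe sets and is no share over pairs of genes. No share was taken over pairs of other genes, whose ratios may lie further apart than those of probe sets of 1 gene. The 7 and the 6 of 10 therefore describe these pairs only. Besides Rab5, Rab8 and Rab4, the pairs of opposite sign were Rab3a with Rab3d, Rab2a with Rab2b, Rab1a with Rab1b and Rab40b with Rab40c. In the Rab3 pair the value of Rab3a is a bound. Signs within the pairs were not all stable. Rab40b was above 0 under all 3 other scalings, Rab1a below 0 under 1 of them, and Rab2a, Rab2b and Rab4a have further probe sets of the other sign.

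The 6 genes with Rab names that are not GTPases included 2 that were at least 2-fold lower, where 13% of all genes were. Rab11fip5, an adaptor that links Rab11 vesicles to sorting machinery, had 75.6 on the control array and was at the floor on the other, at least 3.83-fold lower. Its 1 probe set ends in _s_at, and with the floor at the 60th percentile its log2 ratio was -0.19. Rab3il1, an exchange factor, had signals of 60.9 and 30.0 (log2 ratio -1.02), and -0.48 at another probe set, and it was short of 2-fold under all 3 other scalings, at -0.75 to -0.71. Rab5if (852 and 649, -0.39), Rab3ip (-0.58) and Rab3gap2 (0.46) lay between, and Rab26os was at the floor on the control array.

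**Figure D3:**
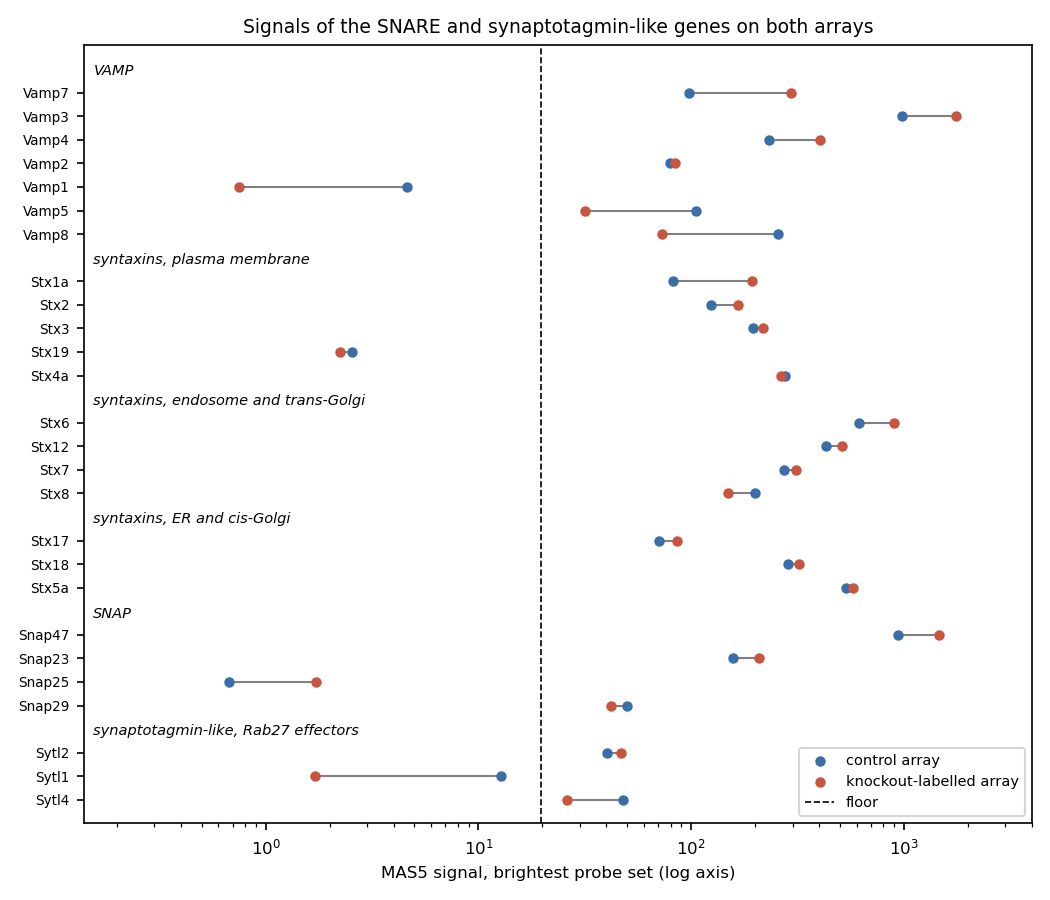
MAS5 signal (log axis) of each of the 23 SNARE genes and 3 synaptotagmin-like genes at its brightest probe set, with the control array in blue, the knockout-labelled array in red, and the floor of 19.7 as a dashed line. Vamp7 and Stx1a lie more than 2-fold to the right of their control values, Vamp5 and Vamp8 more than 2-fold to the left, and Vamp1, Stx19, Snap25 and Sytl1 lie below the floor.

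Among the SNAREs, more genes lay higher than lower at their brightest probe sets, with 15 of 20 genes compared above 0 (75%), where 44.7% of all genes were. Of the 23, 3 were at the floor on both arrays. Past 2-fold, 2 were higher (10%) and 2 lower (10%), against 6.21% and 13% of all genes, which for 20 genes is near the background. The median log2 ratio was 0.22, against -0.10 over all genes. Most SNARE genes were bright. In the 2 brightest of the 5 signal groups, 13 SNARE genes had a median of 0.25, where all genes had 0.15. In the 3 dimmest, 7 had 0.08, where all genes had -0.25. The sign of the SNARE median moved with the choice of probe sets, while it stayed above that of all genes in each choice tried. With the median over probe sets it was 0 against -0.11 over all genes, and 9 of 20 were above 0. With only plain _at probe sets the median of 15 SNARE genes was 0.15 against -0.20 over all genes, and 9 were above 0. Without the probe sets ending in _s_at or _x_at, which can match several transcripts, the median of 19 SNARE genes was -0.059 against -0.20 over all genes, 9 were above 0, and 6 were lower and 1 higher by 2-fold or more, where 15.4% and 5.57% of all genes were.

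The VAMPs, the vesicle-side SNAREs, held 3 of the 4 SNARE genes past 2-fold. Vamp7, which fuses late endosomes and lysosomes with each other and with the plasma membrane, gave 97.9 (control) and 293 (knockout-labelled) at the brighter of its probe sets, and 46.4 and 101 at the dimmer. Both were high on the knockout-labelled array, with log2 ratios of 1.58 and 1.12, and the former was 1.71 to 1.86 under the 3 other scalings. Vamp8, the SNARE of late endosome fusion, autophagosome fusion and granule release, had signals of 256 and 72.9 at its single probe set, a log2 ratio of -1.81 and -1.65 to -1.53 under the other scalings. Vamp5, a VAMP of muscle and of the cell surface, had signals of 105 and 31.7 and a log2 ratio of -1.73, with -1.49 to -1.43 under the other scalings, and its second probe set was at the floor on both arrays. With the floor at the 60th percentile its ratio was -0.66. The measured probe sets of Vamp5 and Vamp8 both end in _a_at.

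Vamp5 and Vamp8 are direct neighbours among protein-coding genes on chromosome 6, the only members that adjoin each other, and both were low on the knockout-labelled array. In contrast to Vamp5 and Vamp8, Vamp4, a VAMP of the trans-Golgi, had signals of 232 and 404 (log2 ratio 0.80) and -0.11 at another probe set. Vamp3, a VAMP of recycling endosomes, had 982 and 1761 at its brightest probe set (0.84) and 0.54 at another of the same kind, both ending in _x_at, whereas its _at probe set had 415 and 297 (-0.48). Vamp2, the VAMP of regulated secretion, had 79.6 and 84.4 (0.08), and Vamp1 was at the floor on both arrays.

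At their brightest probe sets the syntaxins, the target-side partners, lay between -0.42 and 0.55, except for Stx1a. Dimmer probe sets of Stx5a, Stx6, Stx8 and Stx18 were at least 2-fold lower. Stx1a, the syntaxin of regulated secretion, had signals of 81.8 and 192 at an _x_at probe set, a log2 ratio of 1.23, while its other probe set was at the floor on both arrays with signals of 15.7 and 7.24. Its direction therefore rested on 1 probe set that can match other transcripts. Of the other plasma membrane syntaxins, Stx2 had 123 and 166 (0.43), Stx3 had 196 and 217 (0.15), and Stx4a, the general syntaxin of the cell surface, had 275 and 264 (-0.06, above 0 after quantile normalization and after median centring). Stx19 was at the floor on both arrays.

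For syntaxins of endosomes and Golgi the probe sets of a gene often parted. Stx6, of the trans-Golgi and endosomes, had 613 and 895 at an _x_at probe set (log2 ratio 0.55), 188 and 93.1 at an _at probe set (-1.02), and 0.17 at a further one. Stx18, a syntaxin of the ER, had 284 and 322 at an _x_at probe set (0.18), -0.20 and -0.57 at other _x_at probe sets, and 54.5 and 22.9 at an _a_at probe set (-1.25). Stx5a, of the cis-Golgi, had 537 and 576 at an _s_at probe set (0.10), and an _at probe set with 40.8 on the control array was at least 2.07-fold lower. Stx8, which acts with Stx7 in late endosomes, had 199.9 and 149.7 (-0.42) and 56.8 and 21.5 (-1.40), lower at both. Stx7 (274 and 312, 0.19), Stx12 of recycling endosomes (432 and 512, 0.25) and Stx17, the autophagosome syntaxin (70.9 and 85.7, 0.27), differed little.

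The SNAP-type SNAREs showed the same split. Snap47 had signals of 939.9 and 1466 at an _x_at probe set (log2 ratio 0.64) and 139 and 46.5 at an _at probe set (-1.58), so its direction was not settled. Snap23, the widely expressed partner of the surface syntaxins, had 157 and 208 (0.41), with -0.43 and 0.90 at others. Snap29, a partner of Stx17 in autophagosome fusion, had 50.2 and 42.0 (-0.26, above 0 under all 3 other scalings) and 42.3 and 28.1 (-0.59). Snap25, the neuronal form, was at the floor on both arrays.

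**Figure D4:**
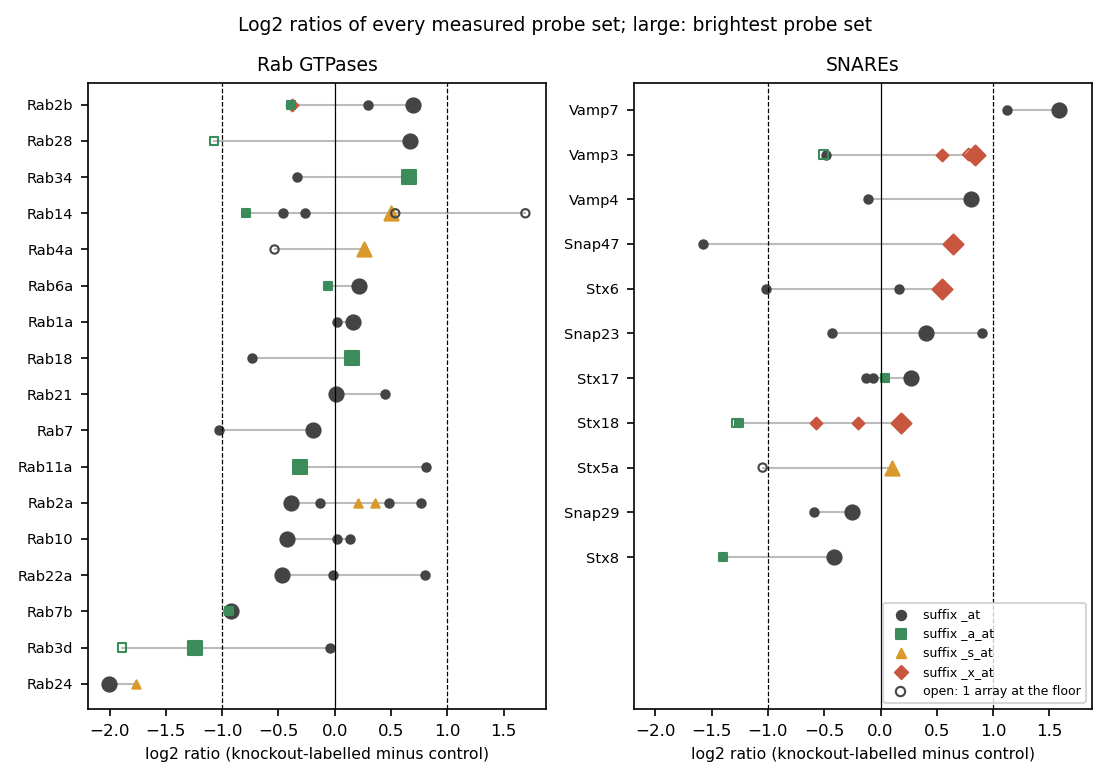
Log2 ratio (knockout-labelled minus control) of every probe set above the floor on at least 1 array, for the Rab GTPases (left) and SNAREs (right) with 2 or more such probe sets; the large symbol is the brightest, shape and colour give the suffix, open symbols have 1 array at the floor, and dashed lines mark 2-fold. The probe sets of Rab24 and Vamp7 stay on 1 side of 0, and those of Snap47, Stx6, Stx18 and Rab14 spread across it.

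Over the members with at least 2 probe sets above the floor on both arrays, 9 of 15 Rab genes (60%) and 7 of 10 SNARE genes (70%) had ratios on either side of 0, against 55% of 2660 genes over the whole series. For all 10 SNARE genes the brightest probe set gave a higher ratio than the next, and for 8 of 15 Rab genes it did, where 1810 of all 2660 genes did so. Suffixes went with direction across the array. Over all probe sets measured on both arrays, 898 ending in _x_at had a median log2 ratio of 0.51 with 72.8% above 0, and 7591 ending in plain _at had -0.15 with 41.8% above 0. Among SNAREs the 8 _x_at probe sets had a median of 0.55 and 6 were above 0, while the 22 plain _at probe sets had 0.12 and the 6 ending in _a_at had -1.33. An _x_at probe set was the brightest for 5 of the 20 SNARE genes compared and for none of the 41 Rab genes.

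Synaptotagmin-like proteins, which bind Rab27 and link granules to the plasma membrane, had low signals on both arrays. Sytl4 had signals of 47.8 and 26.1 (log2 ratio -0.87), Sytl2 had 40.3 and 46.7 (0.21), and Sytl1 was at the floor on both arrays. Neither of the 2 compared reached 2-fold.

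**Figure D5:**
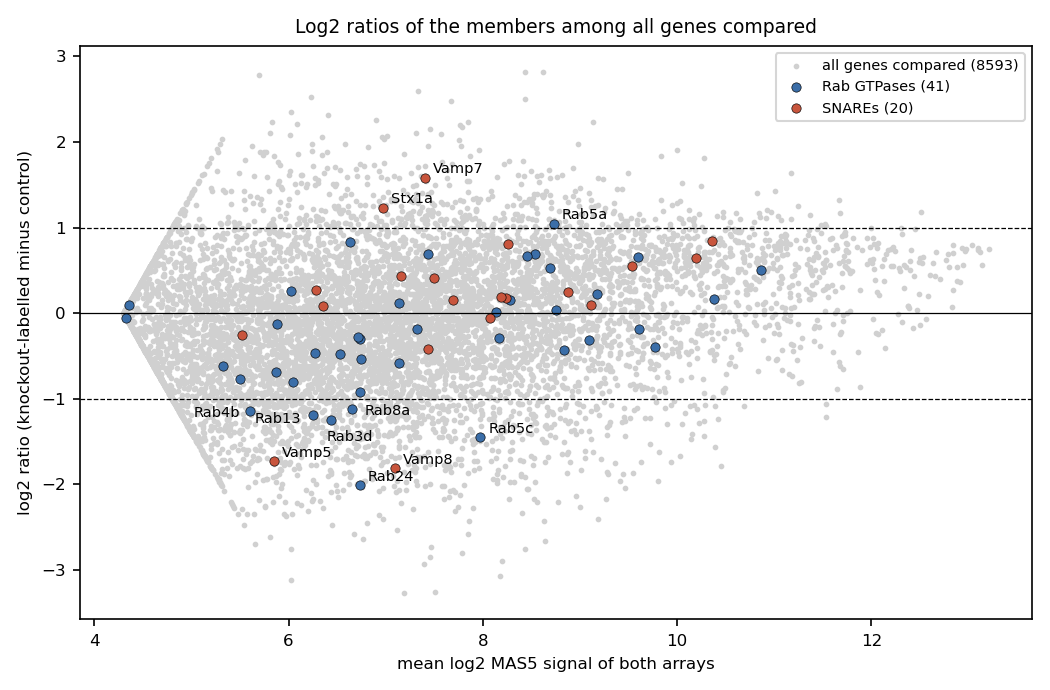
Log2 ratio (knockout-labelled minus control) against the mean log2 signal of both arrays for the 8593 genes compared (grey), with 41 Rab GTPases in blue and 20 SNAREs in red, dashed lines at 2-fold and names on members past them. The members lie within the cloud of all genes, and 5 of the 6 lower Rab genes lie in its dimmer part.

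The machinery around the members was read from 6 lists. Of 92 genes compared in them, 7 were higher (7.61%) and 13 lower (14.1%) by 2-fold or more, near the 6.21% and 13% of all genes, with a median log2 ratio of -0.17. Under quantile normalization or removal of the trend with signal, 11 were higher and 6 lower. Of all genes, 8.25% and 7.84% were higher and 9.54% and 9.5% lower under these scalings. Of the 20 past 2-fold, 13 stayed so under all 3 other scalings. The other 7, all of them lower genes, were Bet1l, Gosr1, Vps45, Trappc6a, Tbc1d10a, Tbc1d17 and Vps16, whose ratios there lay between -0.98 and -0.71. With the floor at the 60th percentile the dim genes Bnip1 (-0.056), Chm (0.59), Rabep1 (0.77) and Appl1 (0.77) also lost 2-fold. Among the 11 SNAREs outside the Vamp, Stx and Snap names, 4 were lower and none higher. Ykt6, a lipid-anchored SNARE of Golgi and autophagosomes, had signals of 276 and 53.7 (-2.36), and its other probe set had 43.2 on the control array and was at the floor on the other. Bnip1 (-1.42), Gosr1 (-1.07, with 0.20 at a dim probe set) and Bet1l (-1.06), SNAREs of ER and Golgi, were also lower, and Bet1l was below 0 at all 4 of its probe sets. Of 12 genes for SNARE disassembly and syntaxin-binding proteins, Vps45, the partner of endosomal syntaxins, was lower (88.3 and 38.9, -1.18).

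Of the 6 genes compared that prenylate or recycle Rabs, Rabac1, a prenylated Rab acceptor of the Golgi, was the lowest of all 92, with signals of 562 and 94.2 (-2.58). Chm, the escort protein that presents Rabs for prenylation, was the highest, with 27.2 and 100.2 (1.88), and each had 1 probe set. Among 19 exchange factor genes, the TRAPP subunits Trappc1 (301 and 94.5, -1.67), Trappc4 (255 and 91.3, -1.48) and Trappc6a (80.3 and 39.7, -1.02), of the complex that activates Rab1, were lower. Rabgef1, an exchange factor for Rab5, was higher at its brightest probe set (157 and 339.95, 1.12), with 0.28 and -0.11 at others. Among 28 effectors and tethers, Rabep1, a Rab5 effector that binds Rabgef1, was higher at both of its brighter probe sets (36.8 and 112.8, 1.62, and 34.5 and 88.8, 1.37), as was Appl1, another Rab5 effector (55.9 and 113.1, 1.02). Osbpl1a, which binds Rab7, was also higher (143 and 304, 1.08). Gorasp2, a Golgi tether, was lower (459 and 163, -1.49), as was Vps16 (93.5 and 39.4, -1.25), a subunit of the tether that acts with Rab7. Of 16 GTPase-activating proteins, Tbc1d15 was higher (241 and 629, 1.38, with 0.76 at another probe set and a dimmer one at the floor in the knockout-labelled pool) and Rabgap1l was at least 2.64-fold higher, while Tbc1d10a (-1.05) and Tbc1d17 (-1.02) were lower.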

How the data were processed

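RNA of stromal cells, pooled over 3 animals per genotype, was measured on 2 arrays. The deposited values are MAS5 intensities on a linear scale, and the submitters' processing notes name MAS5 and version 1 of the Affymetrix Expression Console. Their scaling target and detection calls were not used here. The trimmed mean signal, with 2% taken off either end, was 150.1 on both arrays, and the median signals were 41.8 (control) and 34.4 (knockout-labelled). Groups came from the sample titles.

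Of 22626 probe sets that are not controls, 20380 had 1 symbol in the platform annotation, 691 had several and 1555 had none here. Those with 1 symbol were used, with symbols checked through Entrez identifiers against a RefSeq table of GRCm38.p6 for 20351 of them. The floor was set over both arrays pooled, control probe sets left out. A gene took the probe set with the highest mean log2 signal, genes at the floor on both arrays (3800) were not compared, and where only 1 array was at the floor the ratio is a bound. Named are Rab27a, Rab27b, every member past 2-fold, the 2 brightest of each role, members with disagreeing probe sets and every gene past 2-fold in the pathway lists, and further members were named after their values were seen. Members, lists and roles were chosen with earlier results of these data known. Rab5if and Rab26os were set apart from the GTPases after the annotation was seen. The planned comparison by protein identity was not run, and relatives were paired by symbol instead. The size rule was run on simulated data with planted changes well past 2-fold and less noise than probe sets of a gene showed here. That run checks the code and gives no rate of false calls for these arrays. Analyses used Python 3.11.15, pandas 2.3.3 and statsmodels 0.14.6. Alternatives were other scalings, floors, probe set choices and fold limits.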

Additional observations from a re-analysis of the deposited data

How the results depend on the processing

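No paired analysis was possible because each genotype has 1 array. The median over all genes compared moved from -0.10 to 0.03 after quantile normalization, 0.16 with each array centred on its median and 0.00 once a loess trend was taken out, and the share of higher genes among all past 2-fold moved from 32.3% to 46.4%, 63.1% and 45.2%. Relative to all genes the Rab median stayed lower, by -0.20, -0.17 and -0.11. Higher Rab genes numbered 2 in place of 1 under each of these scalings, with the floor at the 25th percentile and per probe set, and lower ones 3, 2 and 3 in place of 6, and 10 per probe set. At 1.5-fold 6 Rab genes were higher and 11 lower, and at 3-fold 0 and 1. No share of all genes was taken at these limits, here or for the other groups. SNARE genes at least 2-fold higher numbered 4 with arrays centred on the median, 1 with the median over probe sets, without _s_at and _x_at, or with only plain _at probe sets (chosen after seeing the data), 5 at 1.5-fold and 0 at 3-fold. Of all genes, 13.3% were higher with arrays centred on the median, and 3.32%, 5.57% and 5.72% under those 3 probe set choices. Lower SNARE genes numbered 1 with the floor at the 60th percentile or the median over probe sets, 6 without _s_at and _x_at, and 8 of 41 per probe set. The shares of all genes lower there were 9.28%, 11.2% and 15.4%, and 13.9% of all probe sets. The SNARE median was 0 with the median over probe sets, -0.059 without _s_at and _x_at, 0.043 per probe set and 0.15 with only plain _at probe sets, against -0.11, -0.20, -0.11 and -0.20 over all genes. At 1.5-fold 1 synaptotagmin-like gene was lower. Pathway genes at least 2-fold higher numbered 11, 16 and 11 under the scalings in the order above, 3 with the floor at the 60th percentile and 2 with the median over probe sets. Lower ones numbered 6 under each scaling, 7 with that floor and 21 of 143 per probe set. Of all genes, 8.25%, 13.3% and 7.84% were higher and 9.54%, 7.79% and 9.5% lower under the scalings in that order. The shares of all genes lower with that floor and per probe set are given above. With that floor 6.04% of all genes were higher. The median log2 ratio of pathway list genes was 0.087 with arrays centred on the median. With the floor at the 60th percentile, 10 of 12 members with several probe sets had ratios on either side of 0. The same share over all genes was not taken with that floor. With Rab5if and Rab26os counted as Rab genes, which was added after seeing the data, 1 was higher and 6 lower of 43. No member past 2-fold changed sign under any alternative that gave it a value, but most alternatives could not have reversed one. A floor cannot reverse a ratio, and most of these members had 1 measured probe set, so probe set choices could not reverse them. Stx1a and Rab11fip5 had no value without _s_at and _x_at, and Rab3il1 fell to 0 with the median over probe sets. The cause of the shifts between settings was not tested.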
